A study of Rattus norvegicus with 180 samples.

Results

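Testis was compared with the other 54 organs of a miRNA expression atlas of male Sprague-Dawley rats aged 10 weeks. The atlas holds 180 1-color miRNA arrays, and the comparison used 55 organs from each of rats 4, 5 and 6, whose blood was washed out with saline under anesthesia before the organs were taken. The arrays labelled testis in these rats numbered 3, and 162 arrays held the other organs, 3 for each. Each organ was averaged over its 3 rats first, and all 717 miRNAs of the array design were considered. The labels name no other treatment, and arrays of the 3 rats that were not perfused held no testis. Values are normalized signal intensities in arbitrary units, and differences are on the log2 scale after values under a floor of 10.8 had been raised to it.

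Testis is a tissue of seminiferous tubules, in which germ cells divide, pass through meiosis and become sperm beside somatic Sertoli cells, with hormone-making Leydig cells between the tubules. Sperm leave it for the epididymis, a duct lined by epithelium. miRNAs are short RNAs that pair with messenger RNAs mainly through bases 2 to 8, the seed, and lower their translation and stability. Members of the miR-34 and miR-449 families share a seed and are known from germ cells and from epithelia that bear motile cilia. A run of fast-evolving miRNA genes on the X chromosome is known from testis in rodents. In whole organs, fewer cells of a type and less RNA per cell cannot be told apart.

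The sequences that the largest differences belong to are given first, from RefSeq (build GRCr8). All 5 mature miRNAs of the reference table that share the seed of miR-34c are shown, 5′ to 3′, with the seed in capitals. On the array the names without an arm stand for the 5p arm.
miR-34a-5p: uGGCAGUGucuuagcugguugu
miR-34b-5p: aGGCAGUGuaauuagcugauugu
miR-34c-5p: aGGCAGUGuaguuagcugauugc
miR-449a-5p: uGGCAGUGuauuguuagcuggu
miR-449c-5p: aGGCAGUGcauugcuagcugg
The genes of miR-34b and miR-34c lie next to each other on chromosome 8 (mature sequences at chr8:60306657-60306679 and chr8:60306133-60306155, minus strand), those of miR-449c and miR-449a on chromosome 2 (chr2:46402394-46402414 and chr2:46403925-46403946, plus strand) and that of miR-34a on chromosome 5 (chr5:165815971-165815992, plus strand). miR-34b-5p and miR-34c-5p share 21 of 23 aligned bases, so a probe of one may also bind the other. miR-34c-5p and miR-449a-5p share 18 of 23.

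The other group of sequences comes from the X chromosome, where 17 hairpin genes from Mir743a to Mir547 lie at chrX:150444098-151712161, all on the minus strand. They fall into a first group of 14 hairpins within 44145 bases and a second group of 3 (Mir3585, Mir201 and Mir547) at chrX:151706708-151712161. The 5 hairpins whose miRNAs carry the findings on this region follow, with the mature arms in capitals.
Mir743b: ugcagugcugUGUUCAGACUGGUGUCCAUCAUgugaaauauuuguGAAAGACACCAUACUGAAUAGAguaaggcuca
Mir742: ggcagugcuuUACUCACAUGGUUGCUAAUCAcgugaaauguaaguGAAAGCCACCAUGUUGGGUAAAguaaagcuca
Mir883: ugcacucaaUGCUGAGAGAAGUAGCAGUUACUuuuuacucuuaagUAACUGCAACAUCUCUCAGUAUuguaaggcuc
Mir471: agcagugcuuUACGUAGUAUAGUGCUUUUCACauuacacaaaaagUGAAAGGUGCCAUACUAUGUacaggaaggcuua
Mir741: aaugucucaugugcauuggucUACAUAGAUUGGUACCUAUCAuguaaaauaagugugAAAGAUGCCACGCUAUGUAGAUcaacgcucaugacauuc
They lie at chrX:150444578-150444654, chrX:150451572-150451648, chrX:150451962-150452038, chrX:150462896-150462973 and chrX:150465149-150465244. The hairpins resemble each other, but their seeds mostly differ. Among the mature arms of the region only miR-743a-5p and miR-871-5p had a seed in common. These 2 arms share 21 of 24 aligned bases, and miR-743a-3p and miR-743b-3p share 18 of 22, so the signals within either pair may not be fully separate. The starred array names of this region (miR-471*, for example) do not say which arm they measure, and no arm was assigned to them here.

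Both miRNAs taken as markers of testis, miR-34c and miR-449a, were higher on each testis array than on every other array, in keeping with the label. The 3 testis arrays detected 173, 163 and 146 miRNAs in rats 4, 5 and 6, within the range of 86 to 244 over all arrays. Detected here means that more than 50% of the spots used for a miRNA passed the scanner's background test. They lay on 3 slides scanned on 3 days, and no miRNA spot was saturated. Over the 142 miRNAs detected on all 3 testis arrays, the median SD between rats was 0.14 on the log2 scale. Of the 717 miRNAs, 345 were detected on all 3 arrays of at least 1 organ and were tested. Of these, 142 were detected on all 3 testis arrays, 35 on 1 or 2 and 168 on none. Before scaling, the 75th percentile of signal was 540 to 738 on testis arrays against a median of 1854 over all arrays, and it was lowest in pancreas (68.0 to 121), the second organ for 4 of the miRNAs below and often not above background there. After scaling, the lowest detected signal on pancreas arrays was 115 to 273. For miRNAs dimmer than that in testis, a lead over pancreas rests on values not detected there.

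Testis led 34 of the 345 tested miRNAs (9.86%), meaning that its organ mean was the highest of 55 and the miRNA was detected on all 3 testis arrays. Only pancreas (47) and thalamus (38) led more, and with a gap to the second organ of at least 1 log2 unit testis led 26 and pancreas 39, against 3 in thalamus. Of the 34, 29 (8.41% of those tested) were higher than each of the other 54 organs in limma, taking the largest of the 54 p-values and adjusting over the 345 (largest adjusted p = 0.0032). For 30 of the 34 every testis array lay above all 162 other arrays (8.7% of the tested miRNAs), and 32 were highest on their own slide in all 3 rats. The slide count follows from the former for those 30, and both describe miRNAs picked for a high testis mean. With another background correction (normexp), under which pancreas was the next organ for most of these miRNAs, testis led 14 and was called over each organ for 5, which were miR-449a, miR-34c, both probe sets of miR-34b and miR-741-3p. The gap to the second organ ran from 0.17 to 5.48 log2 units with a median of 1.71. The SE of a gap and its p-value rest on 1 estimate of spread per miRNA, shared by all 55 organs. Organs at the floor add no spread to it. For miRNAs at the floor in most organs, the SE can therefore be smaller than the spread between rats in testis and the second organ implies. The second organ was epididymis for 19, ventral prostate for 4, pancreas for 4, thymus for 2 and another organ for 5. By class, 20 of the 34 came from the X chromosome region, 6 from the miR-34 and miR-449 family and 2 were forms of miR-202. Starred strands made up 11, which is 16.2% of the 68 starred strands tested. Of the 34, 22 were detected on at most 10 arrays outside testis, and 5 on all 3 arrays of no organ but testis.

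**Figure D1:**
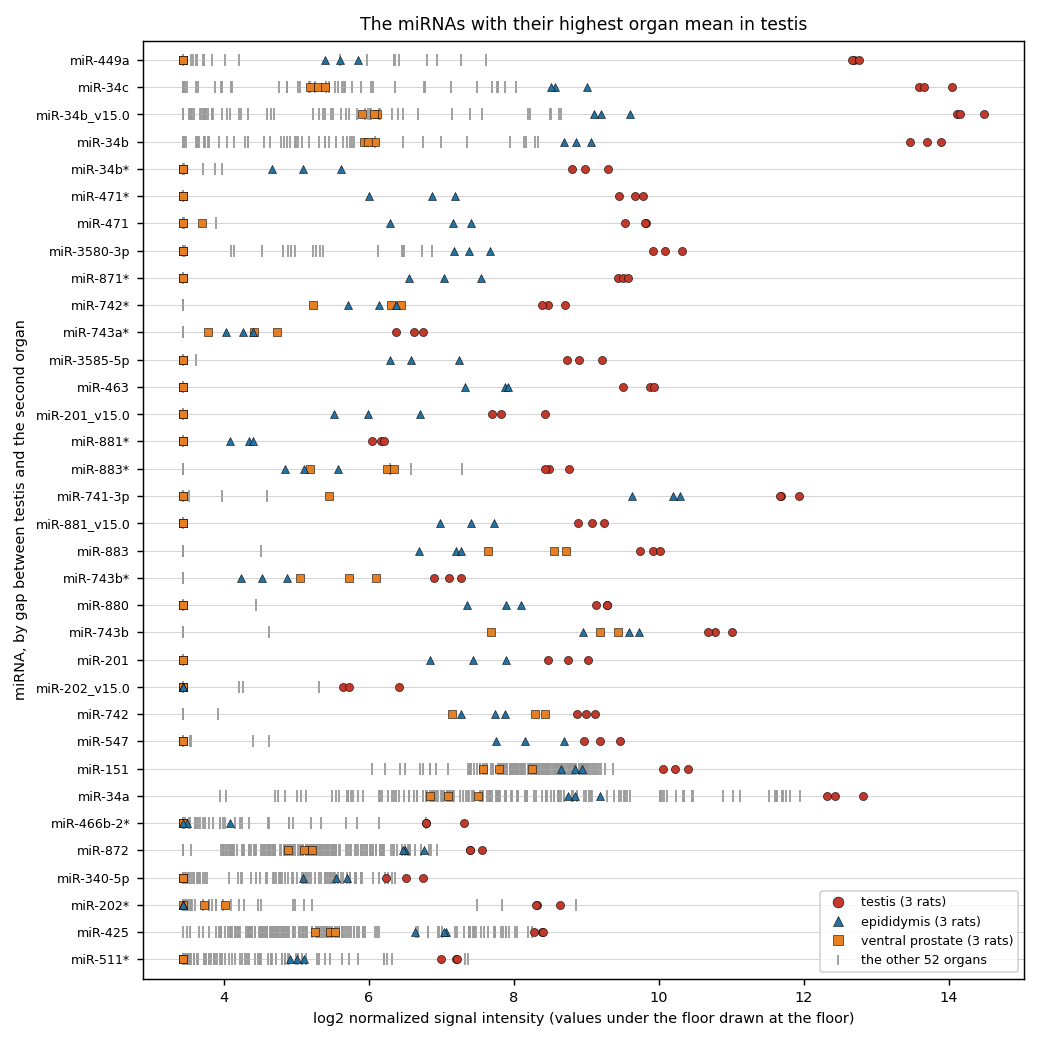
Log2 normalized signal intensity (x axis) of the 34 miRNAs led by testis (rows, ordered by the gap to the second organ). Red circles are testis, blue triangles epididymis and orange squares ventral prostate of 3 rats each, and grey ticks the arrays of the other 52 organs. For 30 of the 34 all testis circles lie to the right of every other mark.

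**Figure D2:**
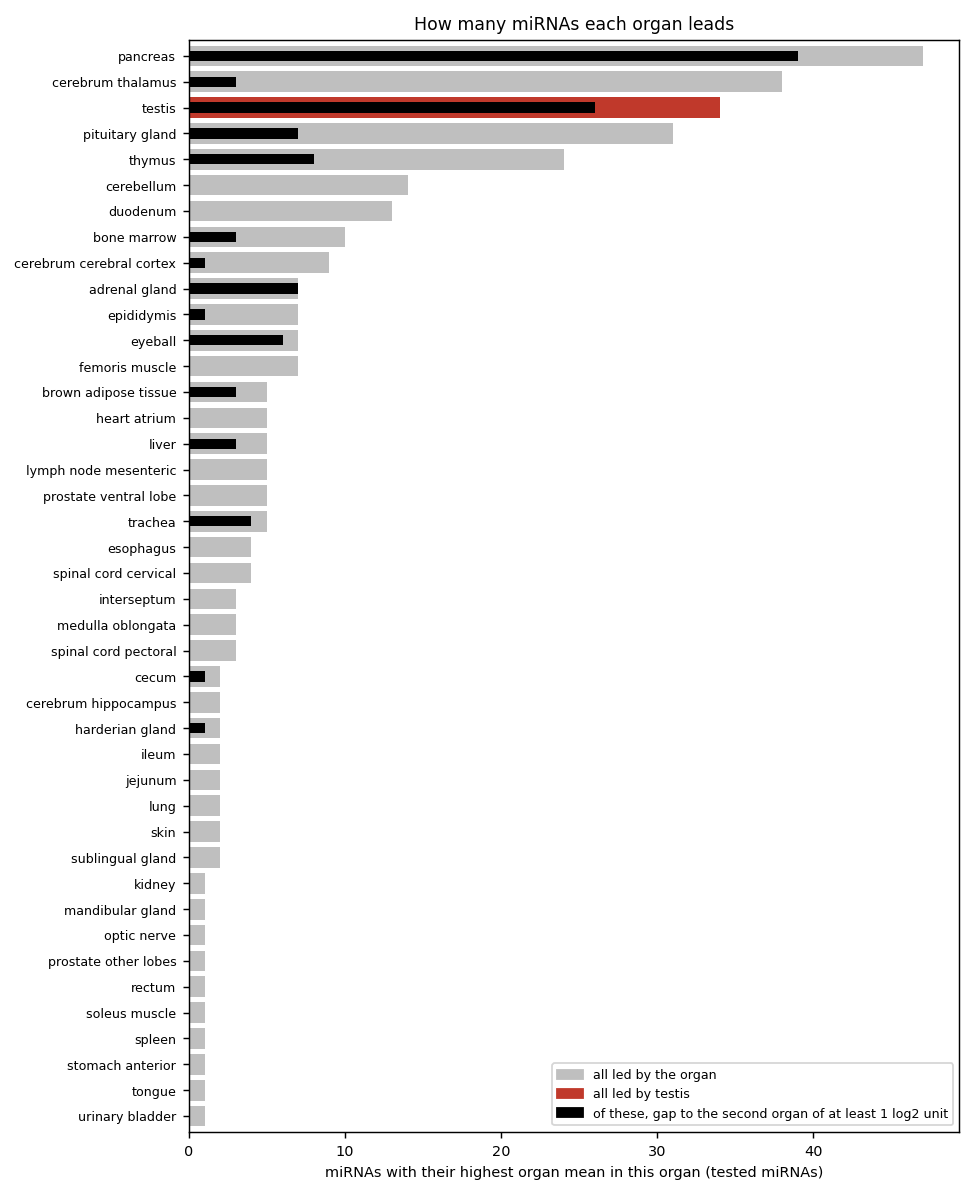
Number of tested miRNAs (x axis) with their highest mean in each organ that led at least 1. Wide bars count all of them (34 in testis, in red) and narrow black bars those with a gap to the second organ of at least 1 log2 unit (26 in testis).

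The miR-34 and miR-449 family stood highest. miR-449a, the germ cell and ciliated cell member on chromosome 2, was at 6655, 6487 and 6946 in testis of rats 4, 5 and 6. In trachea, the second organ, it was at 197, 154 and 111, and no other array exceeded 197. The gap was 5.48 ± 0.10 log2 units (SE). Outside testis miR-449a was detected on all 3 arrays of 2 organs, trachea and lung, and on 12 of 162 arrays in all. Bone marrow held 90.4 ± 30.2 (SD, n = 3) and epididymis 49.4 ± 7.85 (SD, n = 3), each detected on 2 of 3 arrays. In the order trachea, bone marrow, lung and epididymis each organ overlapped the next, and the testis arrays lay apart above them.

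miR-34c was at 12362, 12903 and 16950 in testis and at 381, 517 and 367 in epididymis, a gap of 5.06 ± 0.23 (SE). Its order below epididymis was trachea (220 to 263), lung (109 to 209), thalamus (109 to 219) and hippocampus (59.2 to 82.1). Lung and thalamus overlapped in this order, and 11 organs outside testis held it on all 3 arrays. miR-34b, from the gene next to it, was at 13266, 11346 and 15282 in testis and 473 ± 62.0 (SD, n = 3) in epididymis, with a gap of 4.81 ± 0.22 (SE). An older probe set for the same miRNA, labelled v15.0 for a miRBase release, gave a gap of 4.95 ± 0.26 (SE) to epididymis. miR-34b*, the other arm of that hairpin, was at 629, 446 and 504 against 36.3 ± 12.1 (SD, n = 3) in epididymis, a gap of 3.90 ± 0.07 (SE). Within the slides of rats 4, 5 and 6, testis exceeded the mean of the 7 other arrays by 8.84, 7.87 and 10.3 log2 units for miR-34c and by 8.92, 8.92 and 9.32 for miR-449a.

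miR-34a, the widely expressed member known as a target of p53, was detected on every array. It was at 5541, 5116 and 7201 in testis and at 3143, 3321 and 3955 in medulla oblongata, where the labels of the second array give rat 5 in one field and rat 6 in another. Testis had the highest mean and no array of another organ overlapped it, but the gap of 0.77 ± 0.30 (SE) did not pass the test (limma, adjusted p = 0.12). The gap of miR-34a was 0.40 under the 75th percentile over all miRNAs, 0.46 under quantile normalization and 0.40 in the deposited table of the authors. Its passenger strand miR-34a* was not detected in testis, where it lay at 17.4, 10.8 and 19.6. Of the 11 probes of the family, 7 were tested, and all 7 were higher in testis than in the mean of the other organs, as were 39.1% of all tested miRNAs, miR-34a* by 0.44 ± 0.07 (SE) at values below the detection limit and the rest by 4.62 to 10.03. Apart from miR-34a, these were below the detection limit in most other organs, so the size of such a difference depends on the floor, and with a floor 4 times as high or as low it was 8.13 or 10.62 for miR-34c and 7.20 or 10.64 for miR-449a. Under 3 other scalings (the 75th percentile over all miRNAs, quantile normalization and the deposited table of the authors) miR-34a* was not called, and the other 6 stayed higher. miR-449c-5p, which shares the seed, miR-449c-3p and miR-449a* were each detected on 0 arrays of perfused rats. miR-34c* was too dim to be tested.

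On the X chromosome region, 37 probes measured the 17 hairpins. Of these, 20 were detected in testis on all 3 arrays and were tested, and each of the 20 was led by testis. The filter let a miRNA in through its best organ, so this count is a description. Another 13 of the 37 were detected on no testis array, the 2 arms of miR-3551 among them, and 4 on 1 or 2. miR-741-3p was at 3311, 3260.4 and 3902 in testis, at 1170, 796 and 1255 in epididymis and at most 43.7 in ventral prostate, where it was not detected. The gap to epididymis was 1.72 ± 0.16 log2 units (SE), and 1.09 under the 75th percentile over all miRNAs.

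Both strands of several hairpins were led by testis. miR-471 was at 910, 741 and 894 in testis against 131 ± 47.4 (SD, n = 3) in epididymis, and miR-471* at 819, 698 and 884 against 109 ± 41.3 (SD, n = 3). Their gaps, 2.77 ± 0.08 and 2.95 ± 0.07 (SE), were the largest of the region. The SE do not show the spread within epididymis, where miR-471 was at 143, 78.3 and 171. miR-3580-3p was at 973, 1084 and 1279, with a gap of 2.70 ± 0.19 (SE), and was the member detected on most arrays outside the reproductive organs. These were 15 arrays, and it held 82.8 ± 11.1 (SD, n = 3) in thymus and 88.0 ± 41.8 (SD, n = 3) in bone marrow. miR-871* (2.46 ± 0.06), miR-742* (2.45 ± 0.09), miR-743a* (2.28 ± 0.06), miR-3585-5p (2.25 ± 0.06), miR-463 (2.06 ± 0.05), the v15.0 probe set of miR-201 (1.91 ± 0.08) and miR-881* (1.86 ± 0.03) followed, all gaps in log2 units with SE. Of these, miR-743a* and miR-881* were dim, at 83.3 to 108 and 65.8 to 74.2 in testis. Both lay below the lowest detected signal on each pancreas array (115 to 273), so their lead over pancreas was not settled. In the second organ miR-743a* was detected on 1 of 3 arrays (ventral prostate) and miR-881* on 2 of 3 (epididymis). The size and place of these gaps are therefore not exact. miR-547, from the end of the second group, had the smallest gap of the region, 1.00 ± 0.09 (SE), with 597 ± 101 in testis and 305 ± 99.7 in epididymis (SD, n = 3 each). Under the 3 other scalings its gap was 0.37 to 0.85, that of miR-742* 0.84 to 1.07 and that of miR-743a* as low as 0.65, all still called.

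The organ in second place varied along the region, also between strands of the same hairpin. At the Mir743a end epididymis was second for miR-743b and miR-742*, and pancreas, where it was not detected, for miR-883*. In epididymis 17 of the 37 probes were detected on all 3 arrays, from both groups of hairpins. In ventral prostate 5 were, and these came from Mir743b, Mir742 and Mir883, neighbours at the Mir743a end. There miR-743b was at 582, 206 and 695, miR-742 at 314, 142 and 345 and miR-883 at 423, 199 and 377. Ventral prostate of rat 5 was the lowest of the 3 for each. From Mir471 on, 0 probes were detected in ventral prostate, and miR-471 was at 4.99, 5.83 and 12.9 there. The other lobes of the prostate and the seminal vesicle had 0 probes of the region detected on all 3 arrays. Ventral prostate was the second organ for miR-743a*, miR-743b*, miR-742 and miR-883, with gaps from testis of 1.04 to 2.28 log2 units. The lead of testis over ventral prostate depended on the scaling for 3 of these. Under each of the 3 other scalings miR-742 was higher in ventral prostate than in testis, by 0.47 to 0.56 log2 units, and the gaps of miR-743b* (-0.04 to 0.06) and miR-883 (0.05 to 0.26) did not pass the test. miR-743a (493, 342 and 388 in testis) was not tested, because 1 of its 2 probe sequences stayed dark and it was counted as detected on 1 testis array.

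**Figure D3:**
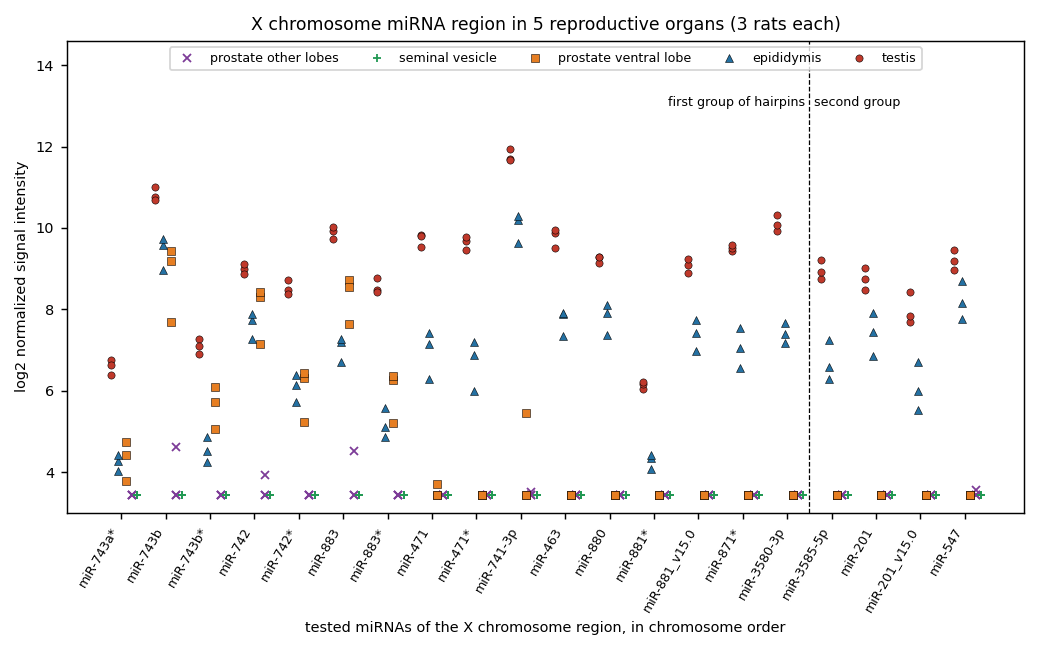
Log2 normalized signal intensity (y axis) of the 20 tested miRNAs of the X chromosome region in chromosome order (x axis) in 5 reproductive organs, 1 mark per rat. A dashed line parts the 2 groups of hairpins. Ventral prostate (orange squares) rises above the floor at the left end of the first group, epididymis (blue triangles) along all of it, and testis (red circles) lies above both.

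Elsewhere on chromosome X testis led no miRNA. Of 33 tested miRNAs whose RefSeq genes lie on X outside the region, it led 0, while 21 were higher and 4 lower than the mean of the other organs, against 39.1% higher and 38.6% lower of all tested miRNAs. In the tested miRNAs with genes on other chromosomes testis led 13 of 251 (5.18%). RefSeq genes were found for 639 of the 717 miRNAs.

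Of the other miRNAs that testis led, miR-202* and miR-202, which are known from gonads, were at 319, 317 and 398 and, for the v15.0 probe set of miR-202, at 85.2, 50.0 and 53.1. The latter was detected on 0 arrays outside testis, at least 5.40-fold below testis on average. That average does not settle pancreas, its second organ. There the lowest detected signal was 115, 224 and 273 in rats 4, 5 and 6, above these testis values. miR-202* was at 229, 181 and 464 in pancreas, so that the groups overlapped (gap 0.36 ± 0.17, SE; limma, adjusted p = 0.385), and next at 25.6 ± 5.26 (SD, n = 3) in duodenum. Without pancreas, or under any of the 3 other scalings, miR-202* was higher in testis than in each other organ (gaps of 1.06 to 3.76), and with the normexp background it was higher in pancreas (gap -1.01). miR-383, also known from testis, was at the floor in all 3 rats and highest in thalamus (119.8 ± 31.2, SD, n = 3).

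The 6 remaining miRNAs led by testis had gaps of at most 1.00. miR-151 was at 1067, 1198 and 1360 in testis and 603 ± 61.6 (SD, n = 3) in optic nerve, a gap of 1.00 ± 0.14 (SE), and was detected on 159 of 162 other arrays. miR-872 was at 175 ± 11.9 in testis and 108 ± 17.9 in thymus (SD, n = 3 each), a gap of 0.71 ± 0.14 (SE). miR-466b-2*, detected on all 3 arrays of 1 other organ, had a gap of 0.76 ± 0.20 (SE) to liver, with testis at 110.3, 111 and 159 and the highest liver array level with the lowest testis array at 110.3, and its call was lost without testis of rat 6 (gap 0.58), with slide as a fixed term (0.32) and with a floor 4 times as low (adjusted p = 0.93 in limma). None of these 3 calls held under the 3 other scalings. Testis led none of the 3 miRNAs under the 75th percentile over all miRNAs or in the table of the authors, and miR-151 alone, by 0.17, under quantile normalization. miR-340-5p, miR-425 and miR-511* were led by testis with gaps of 0.38, 0.29 and 0.17 that did not pass the test (limma, adjusted p = 0.63, 0.86 and 1.0), and under each of the 3 other scalings another organ was higher than testis for each of them.

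The converse count was 0. No tested miRNA had testis alone as its lowest organ (0.0%), and 0 were lower there than in each other organ in limma, also at an unadjusted p under 0.05. Of the tested miRNAs, 116 were at the floor on all 3 testis arrays, and each of them was at the floor in at least 1 other organ too. Among miRNAs detected on all 3 testis arrays, miR-24 came nearest to being lowest. It was at 900, 979 and 921 in testis, with 2 organs below it, of which thymus (685 ± 103, SD, n = 3) was lowest. miR-27b (448, 499 and 476) had 4 organs below testis, miR-23b (1329.9, 1509 and 1465) and miR-101a (133, 112 and 125) had 6, miR-26a 7, miR-27a 8 and miR-23a 9. Testis was below the mean of the other organs by 0.85 ± 0.09 for miR-24, 1.15 ± 0.11 for miR-27b and 0.80 ± 0.13 for miR-23b (log2 units, SE). Under the 3 other scalings testis was the lowest organ for 4 or 5 miRNAs, miR-27b among them each time, and with slide as a fixed term or a random block for 3 or 7.

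Another count was of miRNAs detected widely elsewhere but not in testis. There were 14 detected on no testis array but on all 3 arrays of at least 28 other organs. Epithelial miRNAs led them. miR-200b was at 7.02, 1.14 and 2.70 in testis, while 30 other organs held it on all 3 arrays, with 11999 ± 2970 (SD, n = 3) in ventral prostate, and the mean of the other organs was at least 7.12-fold higher. For miR-200a and miR-429, its neighbours in 1 cluster, the factor was at least 5.73 and at least 4.04, and for miR-141 at least 3.34. miR-96 and miR-183, sensory organ miRNAs of 1 cluster, were highest in eyeball (8569 ± 126 and 3794 ± 499, SD, n = 3) and lay between -1.58 and 2.09 in testis after background correction. miR-335, highest in pituitary gland (2257 ± 197, SD, n = 3), and miR-193, highest in brown adipose tissue (3361 ± 529, SD, n = 3), completed the 8 with the largest differences. The remaining 6 were miR-378*, miR-582, miR-31, miR-320, miR-29c* and miR-181d, with 6 (miR-320) to 27 (miR-31 and miR-181d) other organs below testis. In testis miR-31 was at 19.9, 18.9 and 16.3 and miR-181d at 22.4, 20.9 and 27.1, the latter not called against the mean of the other organs (-0.16 ± 0.14, SE).

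Against the mean of the other 54 organs, 135 of 345 miRNAs were higher in testis (39.1%) and 133 lower (38.6%), together 77.7%, with a median difference of -0.06 over all tested. These counts are the background for the lists that follow, and they depended on the scaling. Under the 3 other scalings the median moved to between -0.25 and -0.31, and 65 to 70 were higher and 181 to 192 lower. With the normexp background 292 were higher and 14 lower.

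**Figure D4:**
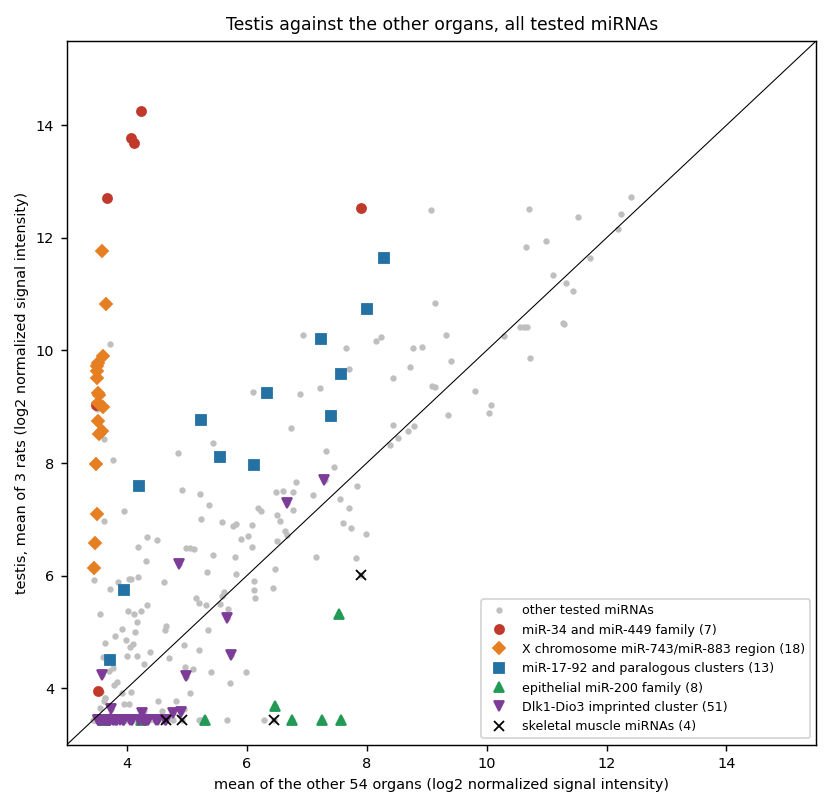
Mean of 3 testis arrays (y axis) against the mean of the other 54 organs (x axis), both log2 normalized signal intensity, for 345 tested miRNAs, with 6 lists in color and the line of equality. The miR-34 and miR-449 family and the X chromosome region stand at the upper left, and the miR-200 family lies below the line. The X chromosome list drawn holds 18 of the 20 tested miRNAs of the region, without miR-3580-3p and miR-3585-5p.

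In the miR-17-92 cluster and its paralogs, known for promoting proliferation, 13 of 27 probes were tested, with 12 higher and 1 lower in testis and a median difference of 2.56. miR-19b was at 3232, 2780 and 3678, second only to thymus (4531 ± 276, SD, n = 3) and 3.36 ± 0.14 (SE) above the mean of the other organs. For miR-19a (446, 381 and 489) testis was in place 5, 3.53 ± 0.18 above that mean, and for miR-18a and miR-20a in place 4, 3.39 ± 0.12 and 2.98 ± 0.15 above it. Other organs holding miR-19a and miR-18a on all 3 arrays numbered 31 and 14, so the size of these differences depends on the floor. With a floor 4 times as high or as low the median of the list was 2.01 or 2.74. Thymus, bone marrow and duodenum held more than testis of miR-18a, miR-19a and miR-20a. The 3 other scalings gave 10 or 11 of the 13 higher and 2 lower, with medians of at most 1.51. miR-290 of the embryonic stem cell cluster miR-290 to miR-295 was at 70.2, 87.2 and 73.8, below pancreas, duodenum and thymus, while 12 of 14 probes of that cluster were detected on no testis array. Both of its tested probes, of miR-290, were higher than the mean of the other organs by 1.94 ± 0.19 and 1.18 ± 0.12 (SE), and only the former under the 3 other scalings. The latter, the v15.0 probe set, was detected on 1 testis array and on all 3 arrays of 2 other organs. With a floor 4 times as high it turned in sign, 1 probe was called higher and the median of the list was 0.30.

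The Dlk1-Dio3 cluster, an imprinted locus with miRNAs of brain and endocrine organs, was mostly undetected in testis. Of its 93 probes 89 were detected on no testis array and 2 on all 3. Of all 345 tested miRNAs, 168 were detected on no testis array. Testis shared this with other organs, as only 24 others held miR-329 on all 3 arrays, 18 miR-300-3p and 21 miR-379. For miR-329 and miR-379, 26 and 28 other organs lay below testis. Of 51 tested, 40 were lower and 2 higher than the mean of the other organs, with a median of -0.40. A floor 4 times as high gave 21 lower and a median of -0.09, and one 4 times as low 38 lower and a median of -0.68. miR-329, miR-300-3p and miR-379 were lower and not detected in testis, the mean of the other organs being at least 1.12-fold higher for miR-329 and at least 1.02-fold for miR-379, with no bound above 1 for miR-300-3p. miR-409-3p, at 65.0, 83.9 and 73.0, was higher by 1.33 ± 0.26. The 2 higher calls were lost under the 3 other scalings, where 29 to 35 of the 51 were lower, and with the normexp background the list turned, with 48 of 51 higher. The let-7 family, linked to differentiation, differed little. All 8 members were detected on all testis arrays, with let-7a 0.31 ± 0.10 higher, let-7d 0.26 ± 0.11 lower and let-7e (0.28 ± 0.16) and let-7i (-0.20 ± 0.11) not called. Under the 3 other scalings 7 or 8 of the 8 were lower and let-7a changed sign.

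**Figure D5:**
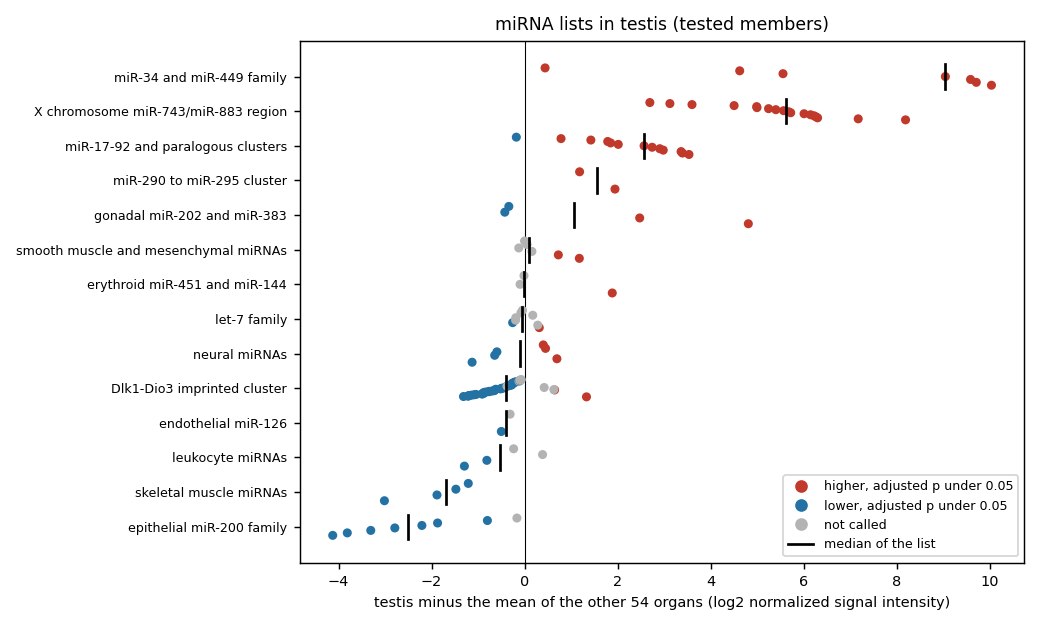
Differences between testis and the mean of the other 54 organs (x axis, log2 normalized signal intensity) for the tested members of 14 lists (rows). Red points are higher and blue points lower at an adjusted p under 0.05, grey points are not called and black bars mark medians, from 9.04 for the miR-34 and miR-449 family to -2.50 for the miR-200 family.

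Other lists held miRNAs that mark cell types a testis sample could hold. In the miR-200 family, of columnar epithelium, 9 of 10 probes were detected on no testis array, and 7 of 8 tested were lower (median -2.50), also under the 3 other scalings, against 4 lower and 3 higher with the normexp background. Its summed signal was 39.7 to 71.8 on testis arrays, against a median of 1021 on the others, which ranged from 0.0 to 44887. Testis shared this with other organs, as miR-200b was detected on no array of 22 others, miR-200a of 23 and miR-429 of 24. Of the skeletal muscle miRNAs miR-1, miR-133a, miR-133b and miR-206, all 4 were lower. miR-1, miR-133a and miR-206 were undetected in testis. The mean of the other organs was at least 3.30-fold higher for miR-1 and at least 1.14-fold for miR-206. Only 23 other organs held miR-1 on all 3 arrays, and only 8 held miR-206. miR-133b, detected on 1 testis array, was lower by 1.89 ± 0.72 (SE). Of the smooth muscle and mesenchymal list 5 of 8 were detected on all testis arrays, with a summed signal of 4194 to 4432. miR-143 was at 3693, 3471 and 3773 (higher by 1.17 ± 0.24, SE), miR-145 at 88.2, 57.2 and 58.6 (higher by 0.72 ± 0.30), and miR-214 (0.15 ± 0.26) and miR-199a-3p (-0.13 ± 0.28) were not called. Of these 2 calls neither held under the 3 other scalings, where 3 or 4 of the 6 tested were lower instead. Endothelial miR-126 was at 482, 474 and 438, lower by 0.50 ± 0.21 (SE), and its other arm miR-126* (-0.31 ± 0.30) was not called. Both were lower under the 3 other scalings, with a median of -1.48 to -1.67.

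Blood cell miRNAs were detected in part. Erythroid miR-451 differed between the rats, at 460, 687 and 11.3 in rats 4, 5 and 6, and was higher than the mean of the other organs by 1.88 ± 0.55 (SE; limma, adjusted p = 0.0015), a call that was lost under the 3 other scalings, without testis of rat 4 (1.09) and without that of rat 5 (0.80). Rat 6 was low, and miR-144 (15.9, 12.4 and 3.76) and miR-144* were undetected in all 3. For the markers miR-34c and miR-449a rat 6 was instead the highest of the 3. The cause of the difference between rats was not tested. Among leukocyte miRNAs, miR-142-5p, undetected in testis, was lower (the mean of the other organs at least 1.01-fold higher). It was held on all 3 arrays by 17 other organs, while 24 lay below testis. miR-150, detected on 1 testis array, was lower by 0.81 ± 0.22 (SE), while miR-142-3p (-0.24 ± 0.29) and miR-223 (0.38 ± 0.21) were not called. All 4 leukocyte miRNAs were lower under the 3 other scalings. Of 6 neural miRNAs 3 were lower and 3 higher. The former, miR-9, miR-137 and miR-124, were undetected in testis. The mean of the other organs was at least 1.25-fold higher for miR-9 and at least 1.18-fold for miR-124. Other organs holding miR-9 and miR-124 on all 3 arrays numbered 16 and 11, while 38 and 44 lay below testis. The 3 higher were miR-138 by 0.69 ± 0.11, detected on 1 testis array, and miR-9* by 0.45 ± 0.11 and miR-128 by 0.40 ± 0.17 (SE), both detected on all 3. Under the 3 other scalings all 6 were lower. With the normexp background, 1 skeletal muscle miRNA was lower and 1 higher of 4, 0 leukocyte miRNAs were lower and 2 higher of 4, 0 neural miRNAs were lower and 2 higher of 6, and 0 smooth muscle and mesenchymal miRNAs were lower and 5 higher of 6.

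Against the mean of epididymis, seminal vesicle and both parts of the prostate, 135 miRNAs were higher in testis (39.1%) and 53 lower (15.4%). The balance depended on the scaling, with 67 to 72 higher and 97 to 99 lower under the 3 other scalings and 267 higher and 27 lower with the normexp background. The largest fitted differences upward belonged to miR-449a (8.73 ± 0.08, SE), miR-34c (8.40 ± 0.18) and the v15.0 probe set of miR-34b (8.34 ± 0.20), which were detected on 2, 6 and 8 of the 12 arrays of these glands, so that their size and order depend on the floor. Downward they belonged to miR-200b, miR-200a and miR-429, with no overlap. On the 12 arrays of these glands miR-200b ranged from 4431 to 19907, miR-200a from 2638 to 11490.5 and miR-429 from 1047 to 3205, all detected, and none was detected in testis. The glands were at least 299.7-fold, 193-fold and 69.8-fold higher. Against epididymis alone 117 miRNAs were higher in testis (33.9%) and 61 lower (17.7%), or 67 to 83 higher and 65 to 82 lower under the 3 other scalings, and 256 higher and 31 lower with the normexp background.

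Over the organ means of the 345 tested miRNAs, the organ most like testis was epididymis (Pearson's r = 0.77, a description across miRNAs, which are not independent), then lung (0.70), spleen (0.68) and mesenteric lymph node (0.68). Pancreas (0.33) and pituitary gland (0.39) were least like it. Once the 34 miRNAs led by testis were left out, epididymis fell to place 11 of 54 (r = 0.80), and spleen (0.87), mesenteric lymph node (0.87) and cervical lymph node (0.86) came first. These 34 were picked from the same values, and epididymis was the second organ for 19 of them. Its fall is therefore in part built into the selection. The arrays of different rats correlated at 0.989 to 0.995 within testis over the same miRNAs.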

How the data were processed

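miRNA was measured in 180 samples on custom 1-color Agilent arrays with probes of miRBase 15.0 and 16.0. The authors deposited scanner output (Agilent Feature Extraction 10.7.3) with a background-corrected signal intensity per spot, together with 1 table of the same arrays after their normalization, also a signal intensity, which equals the scanner's total signal times 1 factor per array. Samples were grouped by their labels, and 0 columns were left unmatched. For 8 arrays, none of testis, the labels give 2 rat numbers, and the one in the title was used.

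Outlier spots were left out, and spots were averaged per probe sequence and then per miRNA. Each array's 75th percentile, taken over the 37 miRNAs that every array detected, was brought to 2118, and values were floored at 10.8 and taken to log2. limma 3.58.1 (R 4.3.3) was fitted with 1 term per organ over 165 arrays, with contrasts of testis with the mean of the other 54 organs, the mean of 4 reproductive organs and each organ. Tests were two-sided, adjusted by Benjamini-Hochberg over the 345 tested miRNAs at 0.05. A fold given as "at least" sets each array on which the miRNA was not well above background to the higher of its own value and the lowest detected signal there. With 3 rats the number of arrays limits the precision. On simulated data 87% of planted gaps of 1 log2 unit and 100% of those of 4 were called over each organ.

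Members and lists were chosen with earlier results of these data known. The miRNAs named were miR-34c and miR-449a, the 15 called over each organ with the largest gap to the second organ, the 8 called below each with the largest gap (there were none), up to 4 per list with the largest difference, and the 3 highest and 3 lowest against the reproductive organs. Any further miRNA was chosen with its values in view. Arrays of one rat share an animal, and residuals correlated at 0.050 within and -0.025 between rats, and the rat as a block changed no count of calls by over 1.5 times. The normexp alternative used the median spot signal. Python 3.11.15, pandas 2.3.3, numpy 2.4.6 and matplotlib 3.10.9 were used.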

Additional observations from a re-analysis of the deposited data

How the results depend on the processing

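The lead of testis in miR-449a, miR-34c, miR-34b and miR-741-3p was called under every alternative that tested them, and 22 or 23 of the 29 calls over each organ held under 3 other scalings (27 or 28 miRNAs led). With the 75th percentile over all miRNAs, the counts were 65 higher than the mean of the other organs, 67 higher and 99 lower than the reproductive organs, 67 higher than epididymis and 4 with testis lowest. Quantile normalization gave 70, 72, 97 and 5 (epididymis within 1.5 times), and the table of the authors 67, 72, 98 and 4. The share of higher among all calls was 25.3%, 26.7% and 27.0%, against 50.4%. Among the miRNAs named by rule, differences from the mean of the other organs turned to the following values, under the 75th percentile, -0.079 for the v15.0 probe set of miR-290, -0.99 for let-7a, -1.03 for let-7e, -0.13 for miR-143, -0.73 for miR-145, -1.25 for miR-214, -0.92 for miR-223 and -0.42 for miR-138. For let-7a, let-7e, miR-145, miR-214, miR-223 and miR-138 they were -0.37, -0.81, -0.54, -0.88, -0.67 and -0.26 under quantile normalization, and -0.77, -0.79, -0.41, -0.98, -0.70 and -0.35 in the table of the authors. miR-34a* also turned, to -0.0039, -0.029 and -0.019 under these 3 scalings, and so did miR-9* and miR-128. Gaps to the second organ turned to -1.16 for miR-151, -0.73 for miR-466b-2*, -0.47 for miR-742, -0.043 for miR-743b* and -0.76 for miR-872 under the 75th percentile, to -0.46, -0.56 and -0.35 for miR-466b-2*, miR-742 and miR-872 under quantile normalization, and to -0.35, -0.52, -0.49 and -0.54 for miR-151, miR-466b-2*, miR-742 and miR-872 in the table of the authors. The uncalled gaps of miR-340-5p, miR-425 and miR-511* turned to -0.67, -0.76 and -0.61 under the 75th percentile, -0.45, -0.60 and -0.25 under quantile normalization and -0.38, -0.46 and -0.40 in the table of the authors. The cause was not tested.

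The normexp background gave 292 higher and 14 lower than the mean of the other organs, 14 led, 5 called over each organ, 267 higher and 27 lower than the reproductive organs, and 256 higher and 31 lower than epididymis. Differences turned to 1.15 and 1.19 for miR-383 and its v15.0 set, 0.63 for miR-329, 0.77 for miR-300-3p, 0.73 for miR-379, 0.76 for miR-126*, 1.33 for miR-144*, 1.26 for miR-144, 0.70 for miR-142-5p, 0.51 for miR-206, 0.66 for miR-133a, 0.37 for miR-9, 0.96 for miR-137 and 0.41 for miR-124. Gaps turned to -0.48 and -0.98 for miR-201 and its v15.0 set, -1.80 for the v15.0 set of miR-202, -0.29 for miR-34b*, -0.36 for miR-3585-5p, -1.52 for miR-466b-2*, -0.21 for miR-547, -0.33 for miR-742, -0.65 for miR-742*, -1.60 for miR-743a*, -1.41 for miR-743b*, -1.32 for miR-872, -0.19 for miR-880, -1.73 for miR-881*, -0.32 for the v15.0 set of miR-881 and -0.77 for miR-883*, and the uncalled gaps to -1.01 for miR-202*, -1.62 for miR-340-5p, -0.81 for miR-425 and -1.55 for miR-511*. This setting raises dim values on dim arrays, and the cause of each turn was not tested.

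Keeping only miRNAs detected in at least 5 organs left 10 led and 6 called, since 23 of the 29 were not tested. With slide as a fixed term 3 miRNAs were lowest in testis, and miR-214 (-0.63), miR-223 (-0.13) and miR-144 (0.044) turned. With slide as a random block 7 were lowest in testis. A floor 4 times as high turned the v15.0 set of miR-290 (-0.049), miR-214 (-0.11) and miR-138 (-0.28), and one 4 times as low turned miR-144* (0.56), miR-144 (1.22) and miR-124 (0.96). miR-144 also turned with medians over spots (0.0080), the total signal (0.0037) and without 1 testis array, where it ranged from -0.17 to 0.11. Within single slides, let-7a turned in rat 4 (-0.076), miR-126 (0.052) and miR-138 (-1.27) in rat 5, and miR-145 (-0.71), miR-451 (-1.69), miR-150 (0.071), miR-9 (0.072) and miR-124 (1.04) in rat 6. Without any 1 testis array 126 to 128 miRNAs were higher and 114 to 118 lower, with 28 or 29 called over each organ. With the rat as a replicate block 135 were higher and 133 lower, 34 led and 29 were called, and no count of calls moved by over 1.5 times. On the testis arrays 116 miRNAs were at the floor and have no order.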
